A study of Bos grunniens x Bos taurus and Bos grunniens with 6 samples.

Results

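The genes described here encode the subunits of cohesin in their meiotic and mitotic forms, together with shugoshin 2, which guards cohesin at centromeres. They were chosen by name: 10 symbols (REC8, RAD21L1, RAD21, SMC1B, SMC1A, SMC3, STAG3, STAG1, STAG2 and SGO2) were looked up in the deposited table, whatever their letter case. Of these, 8 were found, on 9 of the 18918 genes, because STAG3 stands on 2 genes. RAD21L1 and SMC1A matched no gene and are not analysed here.

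Cohesin is a ring that holds sister chromatids together from DNA replication until anaphase. A pair of SMC proteins forms most of the ring, a kleisin closes it, and a STAG protein binds to the kleisin. In meiocytes several subunits are exchanged for germline forms: REC8 or RAD21L1 takes the place of the kleisin RAD21, SMC1B that of SMC1A, and STAG3 that of STAG1 or STAG2, while SMC3 is shared. In the testis the meiotic forms build the axes on which homologous chromosomes pair, and cohesin kept at the centromere after the first division is protected by shugoshin.

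Testis RNA of 3 cattle-yak was compared with that of 3 yak, with 1 library per animal and every animal 4 years old. The yak were Gannan males, and the cattle-yak were F1 males with a Jersey sire and a Gannan yak dam, so that their X chromosome came from yak and their Y chromosome from cattle. The cattle-yak (C1, C2 and C3, titled TES5, TES6 and TES7) were castrated in Xiahe County, and the yak (Y1, Y2 and Y3, titled Yak8, Yak9 and Yak10) were euthanized in Linxia County. Place and way of collection therefore cannot be told apart from the cross. The values are FPKM, that is fragments scaled to the length of the gene and the depth of the library, and reads of either group were aligned to the yak genome.

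Whole fragments were recovered from the steps of the FPKM values. The depth inferred with them was 11175100 to 11834987 fragments in the cattle-yak libraries and 12991641 to 13136129 in the yak libraries. The recovered fragments summed to slightly less in each library. Markers of testis cells were present in both groups: 12 Sertoli cell markers summed to 2495 to 2654 FPKM in cattle-yak, against 506.5 to 571.1 in yak, and 5 Leydig cell markers to 10413 to 12397 against 3333 to 4856. The 7 spermatid markers summed to 15.6 to 78.6 FPKM in cattle-yak, with TXNDC2 listed at 0 in C2 and C3, and to 8313 to 10149 in yak. The 11 spermatocyte markers summed to 576.3, 333.1 and 457.0 FPKM (C1 to C3), against 673.5 to 739.2 in yak. The 9 spermatogonial markers summed to 768.7 to 970.7 FPKM, against 186.6 to 254.6 in yak. The libraries hold whole tissue, so fewer cells of a type and less RNA per cell cannot be told apart in any value given here.

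In the deposited FPKM the mitotic subunits and SMC3 were higher in cattle-yak, whereas STAG3 was lower and REC8, SMC1B and SGO2 did not pass the test. After scaling to Sertoli cell markers, which moved the median of all genes to −1.32, SMC3 and STAG1 lay below 0 and RAD21, at −0.03, did not pass the test. All 9 genes passed the minimum mean of 0.5 FPKM, as did 15042 genes in all, which were compared on log2 (FPKM + 1) with limma. A gene was called when its log2 fold change went beyond 1 in either direction and its p, adjusted after Benjamini-Hochberg, was under 0.05. RAD21, STAG2 and SMC3 were called higher in cattle-yak, 3 of 9 genes where 33.4% of all tested genes were called higher. None of the 9 was called lower, against 20.8% of all tested genes. The study, which tested with DESeq, reported STAG3 as significantly downregulated. By the adjusted p alone 4 genes were higher (52.6% of all genes) and 1, STAG3, was lower (29.2%), as also by the unadjusted p, and voom on the recovered fragments likewise called 0 lower. The ranges of the groups were apart for these same 5 genes, 4 higher and 1 lower, as in 53.9% and 30.2% of all tested genes. The median log2 fold change of the 9 genes was 0.94, beside 0.51 over all tested genes. It counts the second STAG3 gene (1.41, not called), whose high value rests on C3 alone, and would be lower without it. The gap between the medians is therefore not read as a difference. The share called higher lies near that of the whole table. The shares lower lie below those of the whole table, but 9 genes are too few to read this as a difference. The pattern described here is the contrast between the subunits.

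**Figure D1:**
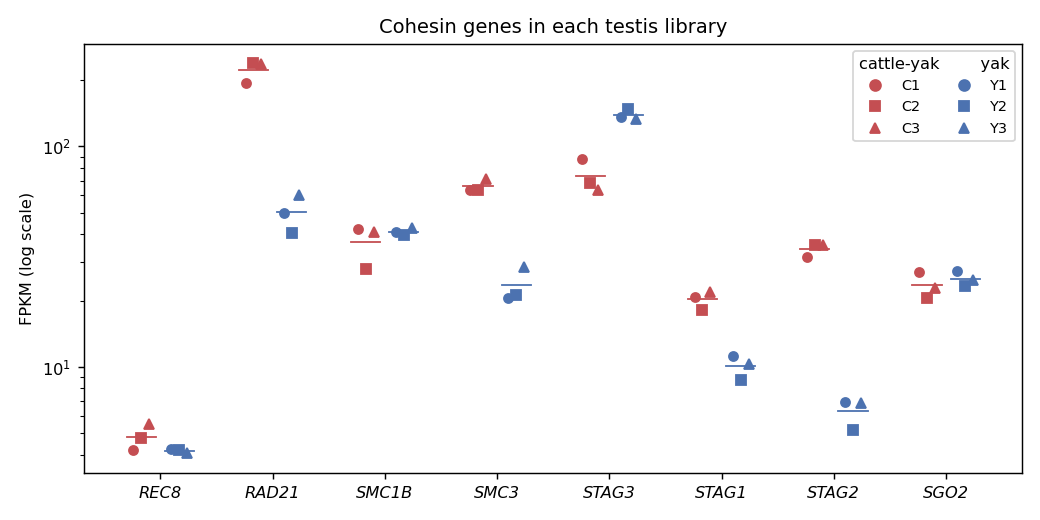
FPKM (log axis) of the 8 cohesin genes, with the more abundant gene for STAG3, in each library. Each point is 1 animal, red for cattle-yak and blue for yak, and the short lines are group means; RAD21, SMC3, STAG1 and STAG2 stand higher in every cattle-yak library on this scale, STAG3 stands lower, and REC8, SMC1B and SGO2 overlap between the groups.

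Of the kleisins, RAD21 had the largest difference in FPKM of all the subunits, while REC8 hardly differed. RAD21, the kleisin of dividing somatic cells, which meiocytes also use (ENSBGRG00000003952), stood at 193.2, 237.7 and 235.9 FPKM in animals C1 to C3 and at 49.9, 40.6 and 60.4 in animals Y1 to Y3. Every cattle-yak animal was at least 3 times as high as every yak animal. The means were 222.3 ± 25.2 and 50.3 ± 9.92 FPKM (SD, n = 3 each), a ratio of 4.42, and in the limma comparison the log2 fold change was 2.13 (standard error 0.16, adjusted p = 4.8e-06). This rise was called under every scaling tried except division by the Sertoli marker level, after which the log2 fold change was −0.03.

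REC8 (ENSBGRG00000017034), the meiotic kleisin whose cleavage releases homologues and later sister chromatids, stood at 4.22, 4.75 and 5.51 FPKM (C1 to C3). In yak it had 4.25, 4.20 and 4.06 (Y1 to Y3), so that C1 lay within the range of the yak animals and C2 and C3 above it. The log2 fold change was 0.17 (95% interval −0.16 to 0.49, adjusted p = 0.30 from limma), which did not pass the threshold and leaves room for a modest difference in either direction. After median-of-ratios scaling it was −0.34, with an adjusted p of 0.049 from limma, and so turned sign without reaching −1. REC8 was the least abundant of the 8 genes in both groups, with 125 to 160 fragments in a library. At 125 fragments in C1 the exact 95% Poisson interval runs from 104.0 to 148.9 fragments, which covers counting error only.

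The SMC subunits moved apart in the same way. SMC3 (ENSBGRG00000017257), the subunit common to mitotic and meiotic rings, stood at 63.3, 63.8 and 71.2 FPKM in animals C1 to C3 and at 20.6, 21.2 and 28.5 in animals Y1 to Y3. The groups did not overlap. The ratio of the means was 2.81 and the log2 fold change 1.47 (standard error 0.14, adjusted p = 2.0e-05 from limma). After median-of-ratios scaling it was 0.86, no longer beyond 1, and after division by the Sertoli markers it turned to −0.67.

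SMC1B (ENSBGRG00000000470), the meiotic form of SMC1, stood at 42.0, 27.8 and 40.8 FPKM in animals C1 to C3 and at 40.7, 39.6 and 42.9 in animals Y1 to Y3. C1 and C3 lay within the yak range and C2 below it. The log2 fold change was −0.17 (95% interval −0.54 to 0.19, adjusted p = 0.33 from limma), and without C2 it was 0.01. After median-of-ratios scaling it was −0.78 (adjusted p = 0.0028 from limma), past the threshold for p but short of −1. The counts behind the FPKM values were 1388 to 2485 fragments per library, so counting error was small beside the gap between C2 and the other animals.

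Among the STAG subunits, the meiotic form was lower and both mitotic forms were higher in cattle-yak. STAG3 (ENSBGRG00000017743), the meiotic STAG subunit, stood at 88.1, 68.1 and 63.8 FPKM in animals C1 to C3 and at 135.7, 147.3 and 132.8 in animals Y1 to Y3. The groups did not overlap, and yak had 1.89 times the mean of cattle-yak. The log2 fold change was −0.92 (95% interval −1.22 to −0.62, adjusted p = 2.3e-04 from limma), past the threshold for p but short of −1. It lay beyond −1 and was called without C1 (−1.06), after median-of-ratios scaling (−1.53) and after Sertoli scaling (−3.08). The study itself reported STAG3 from these libraries as significantly downregulated, by DESeq at q under 0.05 and a log2 fold change beyond 1 in size. It picked the gene as meiosis-related, so the direction of STAG3 here is not independent evidence.

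STAG1 (ENSBGRG00000002516), a subunit of mitotic cohesin, stood at 20.9, 18.1 and 21.9 FPKM in animals C1 to C3 and at 11.3, 8.76 and 10.3 in animals Y1 to Y3. All cattle-yak animals were higher than all yak animals, with a ratio of the means of 2.01. The log2 fold change was 0.94 (standard error 0.13, adjusted p = 2.4e-04 from limma), just inside the threshold of 1. It passed 1 without C2 (1.02) and without Y1 (1.02), was 0.36 after median-of-ratios scaling, and was −1.10 after division by the Sertoli markers.

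STAG2 (ENSBGRG00000009689), the other mitotic STAG subunit, encoded on the X chromosome in mammals, stood at 31.7, 35.7 and 35.7 FPKM (C1 to C3). In yak it stood at 6.92, 5.20 and 6.86 (Y1 to Y3), with 269 to 359 fragments per library. This was the largest fold change of the 9 genes that passed the test: the means stood in a ratio of 5.43 and the log2 fold change was 2.28 (standard error 0.14, adjusted p = 1.7e-06 from limma). STAG2 was the only cohesin gene called higher whose log2 fold change stayed above 0 after Sertoli scaling, at 0.24, which was not called.

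A second gene with the symbol STAG3 (ENSBGRG00000017880) has a model of 345 bases, against 3559 for the more abundant gene, and is uncertain, since reads of near-identical copies can be split between them. It held 7, 2 and 50 fragments from C1 to C3 and 3, 1 and 2 from Y1 to Y3, that is 1.71, 0.52 and 12.5 FPKM against 0.66, 0.22 and 0.45. The high value rests on C3 alone. The log2 fold change of 1.41 did not pass the threshold (adjusted p = 0.087 from limma), and it was 0.50 without C3.

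SGO2 (ENSBGRG00000026677), shugoshin 2, which recruits a phosphatase that shields centromeric REC8 from cleavage, stood at 26.9, 20.6 and 22.8 FPKM in animals C1 to C3 and at 27.3, 23.4 and 24.8 in animals Y1 to Y3. The groups overlapped, since C1 lay above both Y2 and Y3. The log2 fold change was −0.10 (95% interval −0.40 to 0.19, adjusted p = 0.46 from limma). After median-of-ratios scaling it was −0.70 (adjusted p = 0.0013 from limma), past the threshold for p but short of −1.

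As all tested genes together had a median of 0.51, each log2 fold change was also taken relative to that median. On this scale STAG3 stood at −1.43, SMC1B at −0.68, SGO2 at −0.62 and REC8 at −0.35, whereas STAG1 stood at 0.43, SMC3 at 0.96, RAD21 at 1.62 and STAG2 at 1.77. The order of these genes therefore ran from the germline subunit STAG3 to the somatic subunit STAG2. The other somatic STAG subunit, STAG1, stood between REC8 and the shared subunit SMC3. Median-of-ratios scaling put the median over all genes at 0.01 and left RAD21 (1.52) and STAG2 (1.71) called higher and STAG3 called lower, with the other genes not called. Of these, SMC1B (−0.78), SGO2 (−0.70) and REC8 (−0.34) passed the threshold for p as lower without reaching −1. SMC3 (0.86) and STAG1 (0.36) passed it as higher without reaching 1. After this scaling the split over all genes was 2655 higher (17.7%) and 4173 lower (27.7%), against 5023 and 3136 with the deposited FPKM. The study, which tested with DESeq, also reported more genes lower than higher in cattle-yak, unlike the deposited FPKM here.

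Division of each library by the level of its Sertoli markers, all 11 of which were called higher in cattle-yak, moved the median of all genes to −1.32, with 58.3% of genes called lower and 0.658% higher. STAG3, SMC1B, SGO2, REC8 and STAG1 were then called lower and no cohesin gene higher. Division by the spermatocyte markers, chosen after seeing the data, moved the median to 0.80, with 43.6% of genes called higher and 17.5% lower. RAD21, STAG2, SMC3, STAG1 and the second STAG3 gene were then called higher and none lower, and STAG3 kept a value below 0, at −0.55. The factor differed between C1, C2 and C3 (1.12, 0.68 and 0.90). Every gene takes on this shared spread, and limma draws the variances of genes together. For the second STAG3 gene, whose high value rests on C3 alone, the standard error fell from 0.69 to 0.35. That call is therefore not read as a result.

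**Figure D2:**
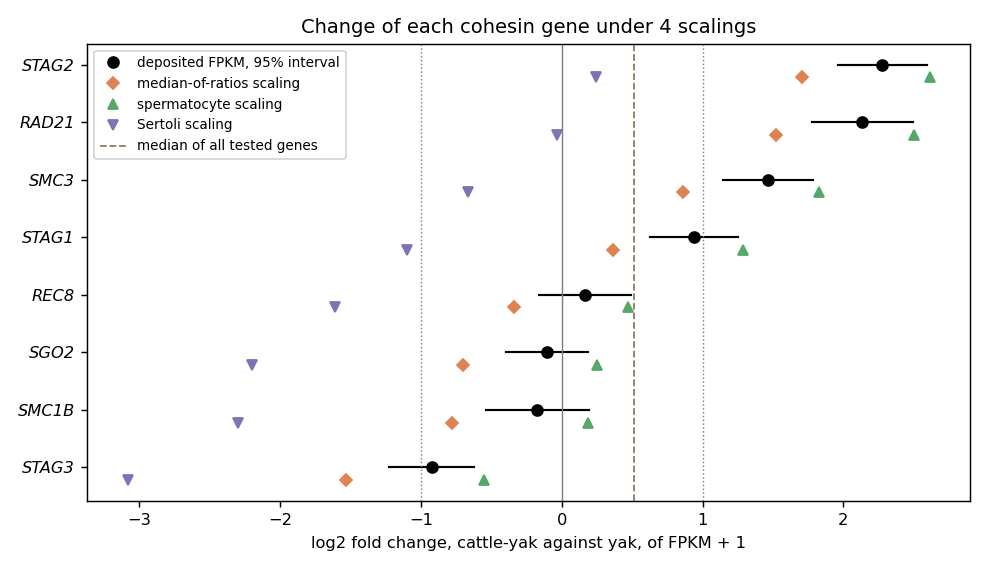
Log2 fold change of FPKM + 1 between cattle-yak and yak for the 8 cohesin genes, with the limma 95% interval (black) and the values after 3 other scalings of the libraries. The dashed line is the median of all tested genes and the dotted lines are the thresholds of −1 and 1; each scaling shifts all genes to one side, so that RAD21, SMC3 and STAG1 lie below 0 after Sertoli scaling, while STAG3 stays lowest and STAG2 highest under all 4.

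A ratio between genes of 1 library does not depend on the scaling between libraries. STAG3 took 62.7% of the summed FPKM of STAG1, STAG2 and STAG3 for C1, 55.8% for C2 and 52.6% for C3, and 88.2%, 91.3% and 88.5% for the yak Y1 to Y3. The means were 57.0% ± 5.15 and 89.4% ± 1.73 (SD, n = 3 each), and the groups did not overlap. STAG2 had the larger gain in share, with 27.1% ± 3.94 in cattle-yak and 4.10% ± 0.76 in yak. STAG1 followed, with 15.9% ± 1.86 and 6.54% ± 0.99. A share does not tell which gene moved, as that depended on the scaling between libraries. In the deposited FPKM STAG2 had a log2 fold change of 2.28 and STAG3 one of −0.92. After Sertoli scaling STAG2 stood at 0.24 and STAG3 at −3.08. The summed level of the STAG genes in the deposited FPKM was less different, at 121.4 to 140.6 against 149.9 to 161.2 in yak.

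Of the kleisins measured, REC8 took 2.14%, 1.96% and 2.28% of the summed FPKM of REC8 and RAD21 (C1 to C3). In yak it took 7.85%, 9.38% and 6.29% (Y1 to Y3). Which of the genes carried this difference depended on the scaling between libraries. In the deposited FPKM RAD21 had a log2 fold change of 2.13 and REC8 one of 0.17, whereas after Sertoli scaling RAD21 stood at −0.03 and REC8 at −1.61. RAD21 made up most of the summed kleisin FPKM of 197.4 to 242.5, against 44.8 to 64.5 in yak. RAD21L1, the remaining meiotic kleisin, is not part of these shares.

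**Figure D3:**
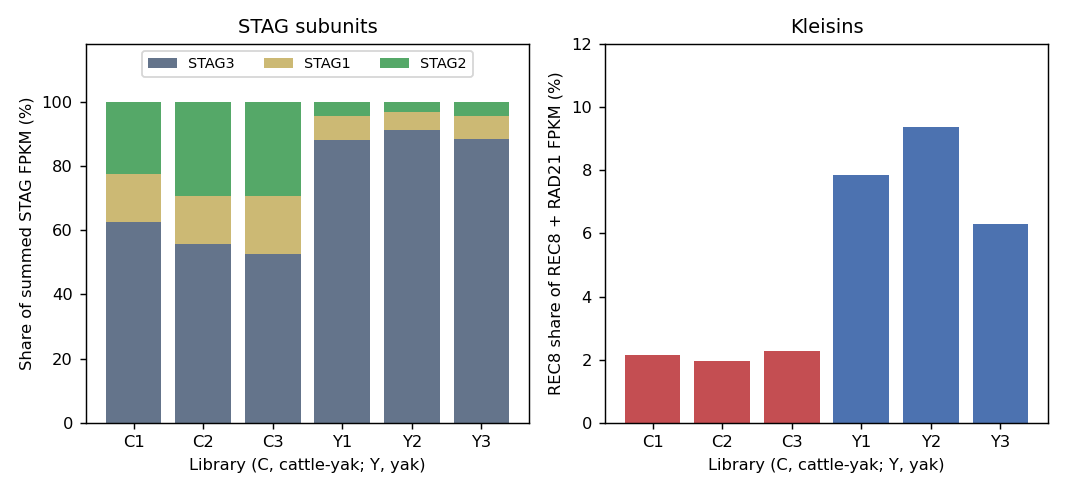
Left, share of STAG1, STAG2 and STAG3 in their summed FPKM in each library (%, stacked to 100); right, share of REC8 in the summed FPKM of REC8 and RAD21 (%). The STAG3 share is 52.6% to 62.7% in the cattle-yak libraries and 88.2% to 91.3% in the yak libraries, and the REC8 share is 1.96% to 2.28% against 6.29% to 9.38%.

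In yak STAG3 was 19.4 to 28.3 times as abundant as STAG2, and in cattle-yak 1.79 to 2.78 times. The difference of the log2 ratio between cattle-yak and yak, on FPKM + 1, was −3.20 for STAG3 to STAG2, −1.86 for STAG3 to STAG1 and −1.97 for REC8 to RAD21. Relative to the shared subunit SMC3, the FPKM ratio of STAG3 was 1.12 ± 0.25 in cattle-yak and 6.05 ± 1.23 in yak, and that of SMC1B was 0.56 ± 0.11 and 1.78 ± 0.25 (SD, n = 3). The ratio of SGO2 to SMC3 was 0.36 ± 0.06 against 1.10 ± 0.23, that of REC8 0.073 ± 0.006 against 0.18 ± 0.03, and that of STAG1 0.31 ± 0.02 against 0.44 ± 0.10. STAG2 and RAD21 went the other way, with 0.52 ± 0.03 against 0.27 ± 0.05 and 3.36 ± 0.34 against 2.15 ± 0.25. All 10 ratios separated the groups without overlap, but 7 of them share SMC3, which itself differed 2.81-fold, and REC8, SMC1B and SGO2 overlapped between the groups before that division. Single genes without overlap were also common, at 53.9% higher and 30.2% lower of all tested genes. Each gave p = 0.1 in the exact permutation test (two-sided; 0.1 also after Benjamini-Hochberg adjustment over the 10), which is the smallest p that 3 animals against 3 allow.

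The order of the levels differed between the groups, as FPKM is per length and can be compared between genes. In yak STAG3 was the most abundant, clear of RAD21, which overlapped with SMC1B. SGO2 and SMC3 followed and overlapped with each other, and STAG1, STAG2 and REC8 then stood apart in that order. In cattle-yak RAD21 came first, clear of STAG3 and SMC3, which overlapped. SMC1B overlapped with STAG2, and SGO2 with STAG1, ahead of REC8. Among all tested genes the mean level of RAD21 was at percentile 82.7 in yak and 97.6 in cattle-yak, and that of STAG2 at 40.7 and 76.2. STAG3 was at percentile 94.2 and 89.3, and REC8 at 32.6 and 31.6.

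Among the cattle-yak, REC8, RAD21, SMC3 and STAG2 were lowest in C1, and the more abundant STAG3 gene was lowest in C3. C2 had the lowest SMC1B, SGO2 and STAG1, and also the lowest level of the spermatocyte markers. Divided by that level, SMC1B was 37.5, 41.1 and 45.5 (C1 to C3) and 35.2 to 37.2 in yak, and SGO2 was 24.0, 30.4 and 25.4 against 20.3 to 24.9. STAG3 was 78.7, 100.5 and 71.1 against 108.9 to 133.7, so that its groups still did not overlap. The part of spermatocyte content in these values was not tested. The spermatocyte markers did not move as one, since 1 of the 11 tested was called higher (SYCP3, 1.10), 2 were called lower (SYCE1, −2.10, and HORMAD2, −2.04) and the median was −0.23. Of 6 tested markers of dividing cells, 2 were called higher and none lower, with a median of 0.36, and their summed FPKM ran from 384.6 to 466.9, against 300.2 to 335.6 in yak. Markers were called higher in cattle-yak in 11 of 11 tested genes for Sertoli (median 2.22), 5 of 5 for Leydig (2.05) and 4 of 4 for myoid cells (2.16), all somatic, and in 8 of 9 for spermatogonia, which are germ cells (1.83). For endothelial cells 2 of 4 were called higher (median 0.99), and for macrophages 2 higher and 1 lower of 4 (1.03), although the summed FPKM of the latter was lower in cattle-yak, at 28.9 to 40.0 against 66.5 to 79.2. That sum rested on AIF1, with 3.55 ± 0.75 FPKM against 61.3 ± 7.20 (SD, n = 3), while CD68, CD163 and CSF1R had higher means in cattle-yak. All 7 tested spermatid markers were called lower (median −7.65). Their part in the cohesin values was not tested.

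The annotation deposited with the values places SMC1B, RAD21, REC8, SMC3 and both STAG3 genes in the meiotic cohesin complex, and STAG1 and STAG2 in the cohesin complex. The pathway Oocyte meiosis is given for SMC1B, REC8, SMC3 and both STAG3 genes, of which SMC3 was called higher. Cell cycle is given for SMC1B, SMC3, RAD21, STAG1 and STAG2, of which 3 were called higher. Of all tested genes 33.4% were called higher and 20.8% lower, and so few genes do not tell the pathways apart.

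The proteins that load, open, protect and cut cohesin included genes called in either direction. Of 23 such genes listed, 21 were found and tested, and 4 were called higher (33.4% of all tested genes), 5 lower (20.8%) and 12 neither, with a median log2 fold change of 0.33 beside 0.51 over all genes. The share called higher was below that of all genes and the share called lower near it. By the adjusted p alone 11 were higher (52.6% of all genes) and 8 lower (29.2%). After median-of-ratios scaling the calls were 1 higher (17.7% of all genes) and 8 lower (27.7%), and after Sertoli scaling 0 higher (0.658%) and 16 lower (58.3%). The loader was not called: NIPBL, which places cohesin on DNA, had 36.8 ± 0.12 FPKM against 21.6 ± 0.57, and its partner MAU2 34.4 ± 5.44 against 18.9 ± 0.46 (SD, n = 3), with log2 fold changes of 0.75 and 0.82.

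PDS5A, which binds the kleisin and regulates release, was called higher, with 19.3 ± 0.20 FPKM in the hybrids beside 5.68 ± 0.87 in yak (SD, n = 3), a log2 fold change of 1.61 (adjusted p = 9.9e-06 from limma), which was 1.05 after median-of-ratios and −0.38 after Sertoli scaling. Its paralog PDS5B had a log2 fold change of 0.43 and the release factor WAPL one of 0.14, and neither was called. CTCF, the protein that stops cohesin at chromatin boundaries, was also called higher (1.58), as was its germline paralog CTCFL, with 24.4 ± 1.85 FPKM against 9.90 ± 1.52 and a log2 fold change of 1.23. After Sertoli scaling these became −0.53 and −0.83, and after median-of-ratios scaling 0.98 and 0.65, which were not called. The acetyltransferase ESCO1, which locks cohesin on DNA, had 16.8 ± 2.07 FPKM against 31.7 ± 2.72 and a log2 fold change of −0.88, which is short of the threshold. ESCO1 was called lower after median-of-ratios (−1.47), quantile (−1.03) and Sertoli scaling (−2.95), but not after TPM (−0.87) or spermatocyte scaling (−0.52). ESCO2, the related enzyme of replicating cells, had 0.33, and a less abundant gene with that symbol, which is uncertain, had 1.71. The deacetylase HDAC8 had 0.94.

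The 5 genes called lower were PLK1, PPP2R5C, MEIKIN, PTTG1 and BUB1. PLK1, a kinase that phosphorylates cohesin before its removal, stood at 17.1, 12.8 and 11.9 FPKM in animals C1 to C3 and at 72.6, 76.8 and 52.4 in animals Y1 to Y3. Every yak animal was at least 3 times as high as any cattle-yak animal, and the log2 fold change was −2.19 (adjusted p = 9.9e-06 from limma). MEIKIN, a germline protein of the meiosis I kinetochore that works with PLK1 and shugoshin, had 1.13 ± 0.42 FPKM in the hybrids and 5.72 ± 0.80 in yak (SD, n = 3), and a log2 fold change of −1.67. PPP2R5C, a regulatory subunit of the phosphatase that shugoshin recruits, was called lower (−1.81), with 54.2 ± 8.12 against 191.4 ± 7.39 FPKM. Its relative PPP2R5A was called higher (1.23), with 56.1 ± 5.93 against 23.3 ± 2.96, but stood at −0.90 after Sertoli scaling. A further relative, PPP2R5E, had −0.72, and was called lower after median-of-ratios (−1.31) and Sertoli scaling (−2.81) only.

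BUB1, the kinase that marks centromeres for shugoshin, was called lower (−1.12), with 16.2 ± 1.14 against 36.5 ± 2.73 FPKM. PLK1, MEIKIN, PPP2R5C, BUB1 and PTTG1 stayed below 0 under all 5 other scalings, although BUB1 (−0.77) and PTTG1 (−0.90) were not called after spermatocyte scaling. PTTG1, the securin that holds separase back, stood at 91.7, 44.8 and 43.3 FPKM (C1 to C3), against 132.3 to 142.7 in yak, with a log2 fold change of −1.27. PTTG1 stands on 3 genes, which are uncertain, and the second had −1.14 while the third was listed at 0 in all but 1 library. Separase itself, ESPL1, had 8.19 ± 0.97 FPKM against 16.7 ± 3.88 and a log2 fold change of −0.93, short of the threshold. ESPL1 was called lower after median-of-ratios (−1.49), quantile (−1.17) and Sertoli scaling (−2.90), but not after TPM (−0.94) or spermatocyte scaling (−0.59). SGO1, the shugoshin of mitosis, had 15.2 ± 1.18 against 9.45 ± 0.48 (0.63), AURKC, the germline Aurora kinase, 31.2 ± 7.07 against 19.7 ± 3.23 (0.63), and AURKB 12.3 ± 1.22 against 10.2 ± 0.95 (0.24), none of them called.

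**Figure D4:**
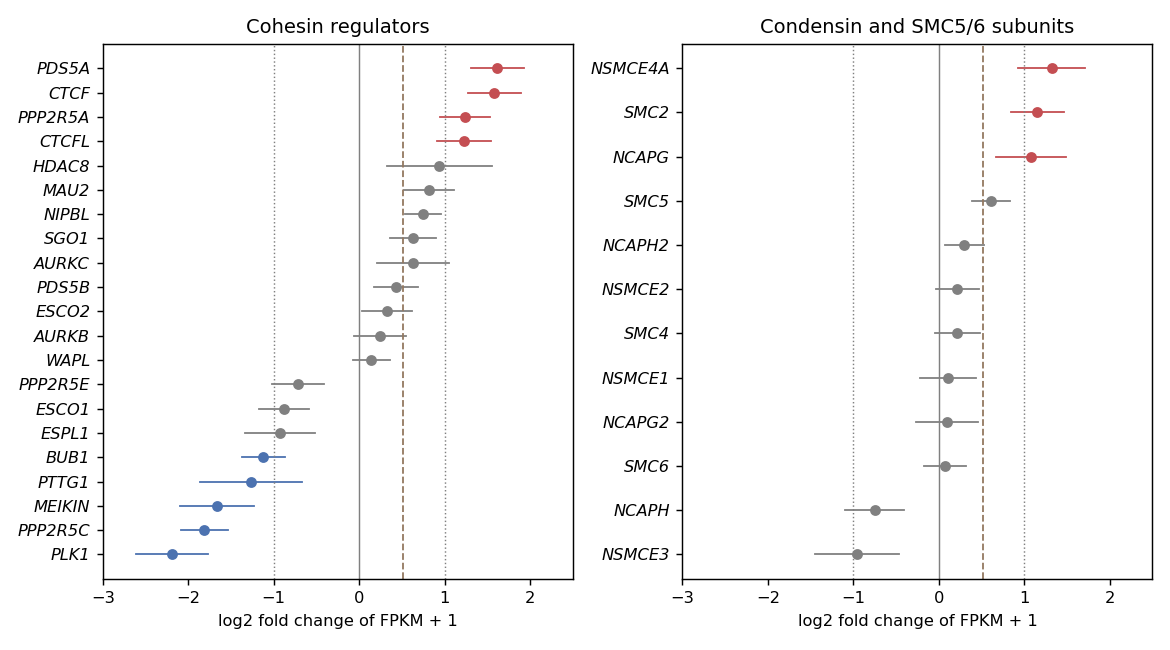
Log2 fold change of FPKM + 1 between cattle-yak and yak, with limma 95% intervals, for the cohesin regulators (left) and the subunits of condensin and SMC5/6 (right). Red genes were called higher, blue genes lower and grey genes neither; the dashed line is the median of all tested genes, and PLK1 (−2.19) and PDS5A (1.61) mark the ends of the regulator list.

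The other SMC complexes gave a measure of how relatives of cohesin behaved. Condensin compacts chromosomes, and SMC5/6 serves DNA repair. Of 15 listed subunits, 12 were found and tested, 3 were called higher (33.4% of all tested genes) and none lower (20.8%), and the median log2 fold change was 0.22. The share called higher was not above that of all genes. By the adjusted p alone 5 were higher (52.6% of all genes) and 2 lower (29.2%). By the unadjusted p 2 were likewise lower, and voom called 1 lower. The 2 lower were NCAPH (−0.75) and NSMCE3 (−0.96, with a second gene of that symbol, left out of the count as the less abundant, called lower at −1.16 and uncertain). The 3 called higher were the condensin subunits SMC2 (1.15) and NCAPG (1.08) and the SMC5/6 subunit NSMCE4A (1.32), and none of them stayed above 1 after median-of-ratios scaling, when 2 subunits were called lower. SMC4, the partner of SMC2, had a log2 fold change of 0.22, from 39.2 ± 2.55 FPKM against 33.7 ± 3.60 (SD, n = 3), and SMC6 had 78.1 ± 8.76 against 73.9 ± 2.74 and 0.07. SMC3, the only SMC subunit shared between mitotic and meiotic cohesin, had a larger log2 fold change (1.47) than all 4 SMC subunits of these complexes, the highest of which was 1.15; this difference was not tested.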

How the data were processed

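Per the methods of the study, reads of both groups went through Trimmomatic and were aligned by the authors, using HISAT2, to the yak assembly LU_Bosgru_v3.0; Cufflinks gave FPKM and HTSeq-count gave counts (versions not given in the sources used here). The authors deposited FPKM values, scaled to gene length and library depth with no further scaling between libraries. Whole fragments and gene lengths were recovered from the ratios of FPKM between libraries for 17973 genes. The values behaved as whole fragments over length and depth, so which tool made them is uncertain. On simulated data the recovery returned 99.1% of 17801 genes.

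Genes with a mean of at least 0.5 FPKM were tested on log2 (FPKM + 1), which understates changes of low genes, with limma 3.58.1 (R 4.3.3, variance trend, two-sided). In simulated data all 200 genes changed 4-fold were called, beside 3 others. The simulation changed few genes, equally in both directions. It does not measure power near the threshold, or false calls where many genes shift as in these libraries. Groups followed the labels. Ratios were tested by exact permutation. Python 3.11.15, numpy 2.4.6, scipy 1.17.1, pandas 2.3.3 and matplotlib 3.10.9 were used.

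For a symbol on several genes the most abundant gene was used in lists and ratios. Median-of-ratios, TPM, quantile, Sertoli and spermatocyte scaling, a pseudocount of 0.1, other filters, limma without a trend, voom on the recovered fragments, and omission of each animal were tried. Members, lists (23 cohesin regulators, 15 condensin and SMC5/6 subunits, and markers of 9 cell types or states) and tests were chosen with earlier results of these data known. Every gene matching a member symbol is named, and listed genes may be named. The planned ratios with SMC1A and RAD21L1 were not computed. Sequences and chromosome positions were not used here.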

Additional observations from a re-analysis of the deposited data

How the results depend on the processing

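With the deposited FPKM 3 cohesin genes were called higher and 0 lower. These became 0 and 5 with Sertoli scaling and 2 and 1 with median-of-ratios scaling. With spermatocyte scaling (chosen after seeing the data) they became 5 and 0, counting the second STAG3 gene, whose high value rests on C3 alone. With each animal left out the counts were 3 to 5 higher and 0 to 1 lower. The 5 arose without C2, when STAG1 and the second STAG3 gene (2.08) were called too, and the 1 lower was STAG3 without C1. With a pseudocount of 0.1 and with voom, STAG1 was called (with voom at 1.01). Signs turned with Sertoli scaling for RAD21 (−0.034), SMC3 (−0.67), STAG1 (−1.10) and REC8 (−1.61), with median-of-ratios (−0.34) and quantile scaling (−0.066) for REC8, and with spermatocyte scaling for SMC1B (0.19) and SGO2 (0.25). SMC1B ran from −0.28 to 0.012 with an animal left out, turning sign without C2. Regulators, 4 higher and 5 lower, became 1 and 8 with median-of-ratios, 0 and 16 with Sertoli and 7 and 3 with spermatocyte scaling. Condensin and SMC5/6 subunits, 3 and 0, became 0 and 2 with median-of-ratios and 0 and 10 with Sertoli scaling. The count lower was 1 with TPM, quantile scaling, a pseudocount of 0.1 and voom, and 0 to 1 with an animal left out. The cause of these shifts, beyond the scaling itself, was not tested. The 3 paralog ratios moved by less than the spread between animals under the pseudocounts, the sum of symbol copies and the omission of each animal. REC8 and the second STAG3 gene lay under the minimum of 5 FPKM and gave no value there. No paired analysis was possible because the groups hold different animals, and the sample titles share no number that would pair them. Depth limits the second STAG3 gene most, at 1 to 50 fragments, followed by REC8 at 125 to 160.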

Other observations

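The deposited annotation gives a sister chromatid cohesion term to 20 tested genes beyond the cohesin genes and both lists described above, a set taken from the annotation after the data were seen. In limma 10 of them were called higher in cattle-yak and 4 lower, beside 6 not called, where 33.4% of all tested genes were called higher and 20.8% lower. After median-of-ratios scaling 5 were called higher (17.7% of all genes) and 5 lower (27.7%), with DSCC1 (0.90) among those no longer called. After Sertoli scaling 0 were called higher (0.658% of all genes) and 11 lower (58.3%), a share lower near that of the whole table. Unlike in the lists above, every gene of a symbol is counted here, so that CDC20 and NAA50 each count as 2. The largest fall was that of HASPIN, the kinase that marks centromeric histone H3, from 195.4 ± 11.2 FPKM in yak to 13.8 ± 4.00 in cattle-yak (SD, n = 3), a log2 fold change of −3.76. CDC20, the activator of the complex that triggers anaphase, stands on 2 of these genes, which are uncertain, with −2.04 for the more abundant and −1.08 for the other. HORMAD1, a protein of unsynapsed chromosome axes, had 50.1 ± 6.92 FPKM against 34.1 ± 1.56 and a log2 fold change of 0.53, which was not called. Its paralog HORMAD2 was called lower (−2.04), with 36.0 ± 13.8 FPKM against 147.0 ± 31.5. Both HORMAD genes are also among the spermatocyte markers. Among the genes called higher were NAA10 (2.42), PHB2 (2.18) and MCMBP (2.02), and DSCC1 and CHTF8, which belong to a clamp loader needed for cohesion at replication forks, had 1.47 and 1.71.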
